A study of Mus musculus with 9 samples.

Results

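The 4 adult globin genes, a red cell heme synthesis gene, a red cell membrane gene and the inducible heme oxygenase were followed in the injured newborn mouse heart. The 7 genes were chosen by symbol: the alpha globins Hba-a1 and Hba-a2, the beta globins Hbb-bs and Hbb-bt, Alas2, Slc4a1 and Hmox1. All 7 were among the 14479 genes listed for every library, and all 7 were among the 13249 genes tested. RNA was sequenced from the heart of CD-1 mice, an outbred stock, in 9 libraries. The groups were ventricular apical resection with left vagotomy (3 libraries), ventricular apical resection alone (3 libraries) and sham surgery (3 libraries). Apical resection cuts off the tip of the ventricle, and vagotomy cuts a vagus nerve, the parasympathetic supply of the heart. Every pup had surgery on postnatal day 1 and was sampled on postnatal day 2, so all 9 libraries, sham included, come from operated newborns about 1 day after surgery. The tissue was the lower end of the ventricle, rinsed in cold buffered saline and frozen, so blood left in the tissue was sequenced with it. The labels do not say whether the libraries came from separate pups or litters. The p-values therefore measure only the spread between these libraries, which may be technical.

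Hemoglobin is built from a pair of alpha and a pair of beta chains, each holding a heme group. Maturing red cells fill with globin mRNA, and young circulating red cells keep some of it, so globin mRNA in a solid organ usually marks blood in it. Alas2 catalyses the first step of heme synthesis in red cell precursors, and Slc4a1 (band 3) exchanges chloride and bicarbonate across the red cell membrane and anchors its skeleton. When red cells break down or bleed into tissue, macrophages take up the hemoglobin, and Hmox1 opens the heme ring and releases iron, carbon monoxide and biliverdin.

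Expression was in FPKM, which is scaled to transcript length and library size, so levels can be compared between genes. No read counts were used, so depth is unknown. Library medians over the 14479 genes ran between 7.52 and 8.29 FPKM. The heart muscle genes Myh6 and Actc1 were listed at 0 in all 3 libraries of resection with vagotomy, against 1326 to 3718 FPKM (Myh6) and 3600 to 7955 FPKM (Actc1) in the resection libraries. The sham libraries had 2898 to 3562 FPKM of Myh6 and 6338 to 6845 FPKM of Actc1. In the authors' deposited table of resection with vagotomy over resection both carry the status HIDATA, with which Cuffdiff marks a locus it skipped for holding too many fragments, so these zeros are not measured levels. Of the 14479 genes, 7 had that status there, and all 7 were at 0 in the vagotomy libraries; none was among the 7 genes described here or the heme, red cell and iron lists. Differences were tested with limma on log2(FPKM + 1), a scale that understates changes of genes with low values. P-values were adjusted by the Benjamini-Hochberg method over all 13249 genes, with 0.05 as the threshold. An exact permutation test of 3 libraries against 3 could not go below a p of 0.1.

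Each globin pair is almost a copy of itself, which bears on how far its values can be read separately. Hba-a1 lies on the plus strand at chr11:32283511-32284465 and Hba-a2 on the same strand at chr11:32296489-32297298 (GRCm38, GENCODE release M21). Hbb-bs lies on the minus strand at chr7:103826534-103828096 and Hbb-bt on the same strand at chr7:103812524-103813996. All 4 are annotated as protein-coding. The coding sequences of Hba-a1 and Hba-a2 are 429 bases each and differ at 1 base, C381T, counted from 1 at the A of the start codon with the base of Hba-a1 first. The change turns codon 127 from GAC to GAT, which is synonymous by the standard genetic code. The coding sequences of Hbb-bs and Hbb-bt are 444 bases each and also differ at 1 base, C417T, with the base of Hbb-bs first (codon 139, GCC to GCT, synonymous). The stretches around these bases show what a read must cover to tell the copies apart; the capital marks the differing base, and the strand is that of the gene.
Hba-a1: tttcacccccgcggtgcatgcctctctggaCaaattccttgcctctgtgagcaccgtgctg
Hba-a2: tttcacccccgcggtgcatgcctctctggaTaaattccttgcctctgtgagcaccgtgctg
Hbb-bs: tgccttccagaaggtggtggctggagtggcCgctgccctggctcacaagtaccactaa
Hbb-bt: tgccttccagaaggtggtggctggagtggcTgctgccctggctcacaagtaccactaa
Of the 330 windows of 100 bases in the alpha coding sequence, 281 were identical between the copies, and of the 345 windows in the beta coding sequence, 317 were. How reads that match both copies were assigned is not given in the sources used here. The untranslated ends differ more in length as GENCODE annotates them, and RefSeq places the starts elsewhere. The longest GENCODE transcripts that hold the coding sequence have 699 bases for Hba-a1, 554 for Hba-a2, 628 for Hbb-bs and 703 for Hbb-bt. The reference genome is that of C57BL/6J, and the globin alleles of the CD-1 pups were not analysed here.

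The bases before the transcription start show how alike the copies are outside the coding sequence. Each run below is the 130 bases that end just before the start in RefSeq (GRCm38.p6), on the strand of the gene. The table held an entry for 5 of the 7 genes, all but Slc4a1 and Hmox1. The positions are chr11:32283542-32283671 (Hba-a1, plus), chr11:32296362-32296491 (Hba-a2, plus), chr7:103827929-103828058 (Hbb-bs, minus), chr7:103813924-103814053 (Hbb-bt, minus) and chrX:150547287-150547416 (Alas2, plus). RefSeq and GENCODE place the starts differently. The runs of Hba-a1 and Hbb-bs lie within the genes as GENCODE gives them, and the other runs overlap theirs in part. Capitals mark every match, on either strand, to the letters GATAA (the GATA factor box), CACCC (the box of KLF factors), CCAAT or TATAA (the TATA box); neighbouring or overlapping matches run together.
Hba-a1: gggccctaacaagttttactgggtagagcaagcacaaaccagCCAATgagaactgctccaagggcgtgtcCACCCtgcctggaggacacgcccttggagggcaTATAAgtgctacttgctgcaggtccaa
Hba-a2: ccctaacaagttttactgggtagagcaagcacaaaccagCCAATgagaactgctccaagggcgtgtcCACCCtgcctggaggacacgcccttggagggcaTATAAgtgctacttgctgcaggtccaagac
Hbb-bs: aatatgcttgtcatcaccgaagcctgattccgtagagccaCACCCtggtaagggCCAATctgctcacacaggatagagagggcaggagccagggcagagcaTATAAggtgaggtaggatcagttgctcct
Hbb-bt: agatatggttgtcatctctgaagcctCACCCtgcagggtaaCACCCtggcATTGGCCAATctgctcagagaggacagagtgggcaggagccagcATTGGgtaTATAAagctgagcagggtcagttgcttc
Alas2: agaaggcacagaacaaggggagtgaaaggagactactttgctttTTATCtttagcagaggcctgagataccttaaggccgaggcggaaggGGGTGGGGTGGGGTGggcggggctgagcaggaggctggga
The alpha windows of 300 bases (250 before the start and 50 after) share an identical run of 297 bases, and the longest run that the beta windows share is 14 bases. In the stretch shown, all 4 globin genes hold the KLF, CCAAT and TATA boxes. The CCAAT box comes before the KLF box in the alpha pair and after it in the beta pair. Alas2 holds the GATA box and the KLF box there, and no CCAAT box. The globin genes also hold 1 GATA box each in the 250 bases before the start, outside the stretch shown. It begins at base -182 (Hba-a1), -185 (Hba-a2), -209 (Hbb-bs) and -204 (Hbb-bt) relative to the start. Among all 32851 promoters of the same table, 22.6% hold GATAA in the 250 bases before the start, 52.0% CACCC, 33.8% CCAAT and 22.8% TATAA. These letters are common, and a match is a description of the sequence only.

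Beta globin mRNA was lower in all 3 libraries of resection with vagotomy than in any resection library, without passing the test over all genes. Hbb-bs, the main beta globin here, had 170, 244 and 432 FPKM in libraries 1, 2 and 3 of resection with vagotomy. It had 3850, 577 and 649 FPKM in the resection libraries and 863, 289.7 and 893 FPKM in the sham libraries. Resection library 1 stood far above the other 8 libraries, and the groups with and without vagotomy did not overlap after resection. Resection with vagotomy minus resection gave Hbb-bs a log2 difference of -2.10 (SE 0.73, limma adjusted p = 0.119). Hbb-bt, the minor beta globin, had 7.61, 21.1 and 37.3 FPKM in resection with vagotomy, 225, 51.9 and 73.6 FPKM in resection, and 68.9, 25.1 and 89.9 FPKM in sham. Its order over the libraries was close to that of Hbb-bs, with the same library highest and the same library lowest. Its log2 difference in resection with vagotomy minus resection was -2.31 (SE 0.68, limma adjusted p = 0.0809), the smallest p of the 7 genes in this comparison. Against sham, the vagotomy libraries overlapped with sham library 2 for both genes, with log2 differences of -1.21 (Hbb-bs, adjusted p = 0.292) and -1.50 (Hbb-bt, adjusted p = 0.166) by limma. In bulk tissue, fewer red cells and less globin mRNA per cell cannot be told apart.

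Of the alpha globins, Hba-a2 rose in resection with vagotomy against sham and Hba-a1 passed in no comparison; the difference between the copies was not tested. Hba-a1 had 57.4, 69.4 and 75.4 FPKM in resection with vagotomy, 145, 131 and 296 FPKM in resection, and 365, 102 and 23.8 FPKM in sham. The vagotomy libraries lay close together and below all 3 resection libraries, while the sham libraries held both the highest and the lowest value of all 9. For Hba-a1, resection with vagotomy minus resection came to -1.40 on the log2 scale (SE 0.77, limma adjusted p = 0.289), and resection with vagotomy minus sham to -0.52 (limma adjusted p = 0.686). Hba-a2 had 109.5, 123 and 72.2 FPKM in resection with vagotomy, 75.7, 18.7 and 25.96 FPKM in resection, and 32.3, 8.74 and 24.5 FPKM in sham. All 3 vagotomy libraries lay above all 3 sham libraries, and resection library 1 lay among the vagotomy libraries. Hba-a2 rose by a log2 difference of 2.31 in resection with vagotomy against sham (SE 0.55, limma adjusted p = 0.0313). It was the only one of the 7 genes past the threshold in any comparison. This call was lost when any 1 of the 3 vagotomy libraries, sham library 2 or sham library 3 was left out, with limma adjusted p = 0.0596 to 0.126. Against resection the log2 difference of Hba-a2 was 1.54 (SE 0.55, limma adjusted p = 0.13), and 2.12 (adjusted p = 0.0477) without resection library 1.

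**Figure D1:**
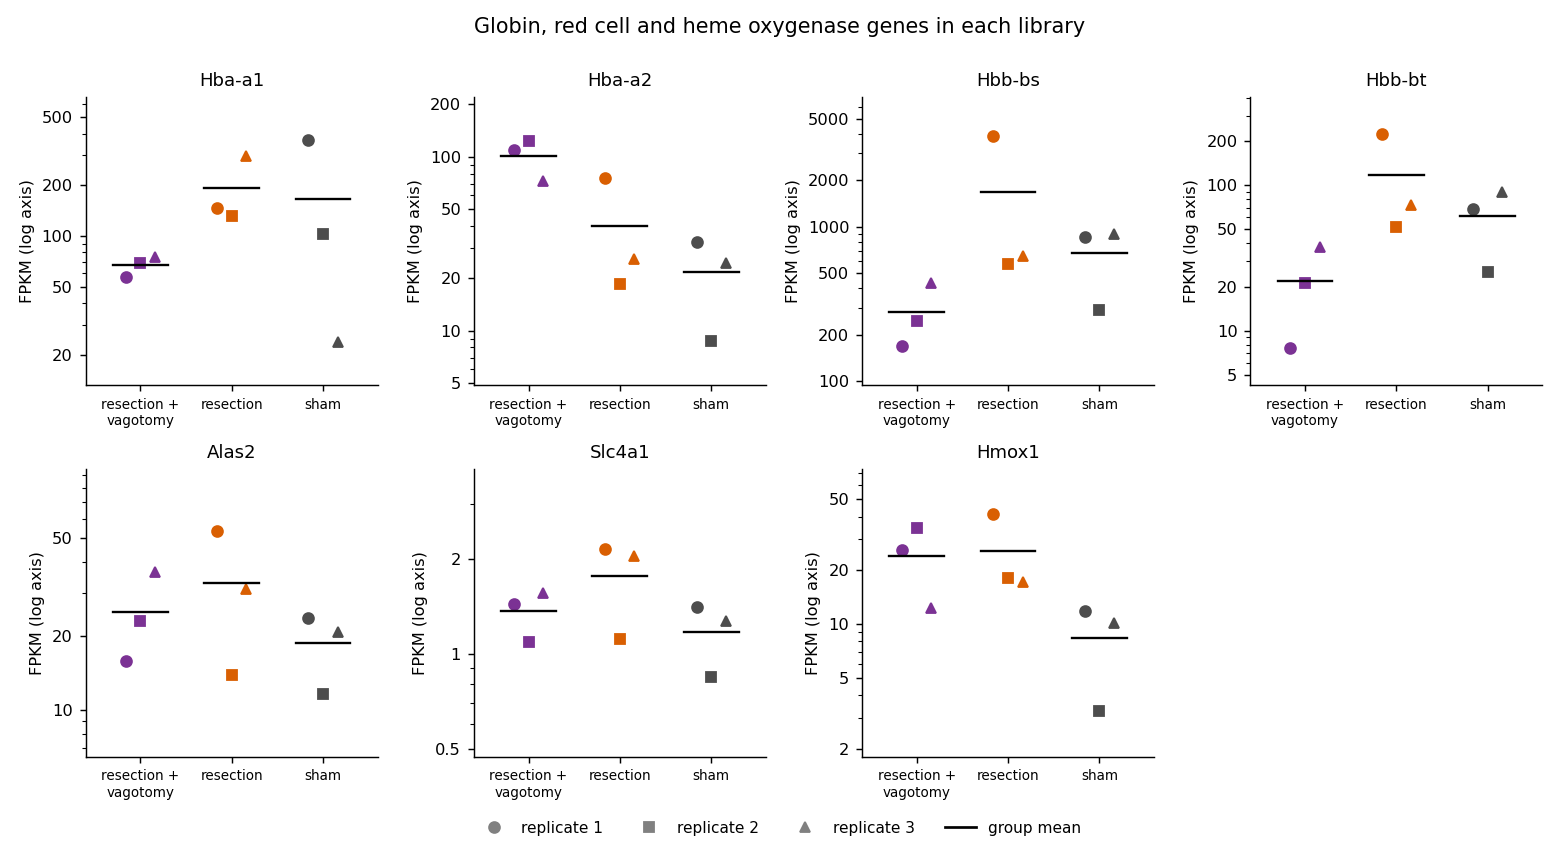
FPKM of the 7 genes (log axes) in each library of resection with vagotomy, resection and sham; symbols give the replicate number and lines the mean of 3 libraries. Hbb-bs reached 3850 FPKM in resection library 1, and Hba-a2 was 72.2 to 123 FPKM in the vagotomy libraries, against 8.74 to 32.3 FPKM in sham.

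Since the copies differ at 1 coding base, each pair was also summed, a choice made after seeing the data. The alpha sum was 167, 192 and 148 FPKM in resection with vagotomy, 221, 150 and 322 FPKM in resection, and 397, 111 and 48.3 FPKM in sham. These ranges overlap in every comparison. The log2 difference of the alpha sum in resection with vagotomy minus sham was 0.38 (SE 0.62, limma adjusted p = 0.724), so the call of Hba-a2 did not extend to the sum of both alpha genes. The beta sum was 178, 265 and 469 FPKM in resection with vagotomy, 4075, 628 and 723 FPKM in resection, and 931, 315 and 982 FPKM in sham. Its log2 difference in resection with vagotomy minus resection was -2.12 (SE 0.72, limma adjusted p = 0.116), and that of the alpha sum was -0.39 (SE 0.62, limma adjusted p = 0.746).

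The proportions of the globin mRNAs also varied between libraries; they were described without a test. Hba-a2 made up 65.6%, 63.9% and 48.9% of the alpha sum in resection with vagotomy, 34.2%, 12.5% and 8.06% in resection, and 8.12%, 7.89% and 50.8% in sham. Sham library 3 thus had a share like those of the vagotomy libraries. The alpha sum over the beta sum was 0.94, 0.72 and 0.31 in resection with vagotomy, 0.054, 0.24 and 0.45 in resection, and 0.43, 0.35 and 0.049 in sham. Alpha mRNA was below beta mRNA in all 9 libraries. Hbb-bs exceeded Hbb-bt 11.6- to 22.4-fold in resection with vagotomy, 8.83- to 17.1-fold in resection and 9.93- to 12.5-fold in sham, so the ratio within the beta pair was steadier than that within the alpha pair. Protein-coding genes with transcripts as short as those of the globins (500 to 800 bases, 211 tested) had a median log2 difference of 0.02 in resection with vagotomy minus resection, where the median of all genes was also 0.02.

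**Figure D2:**
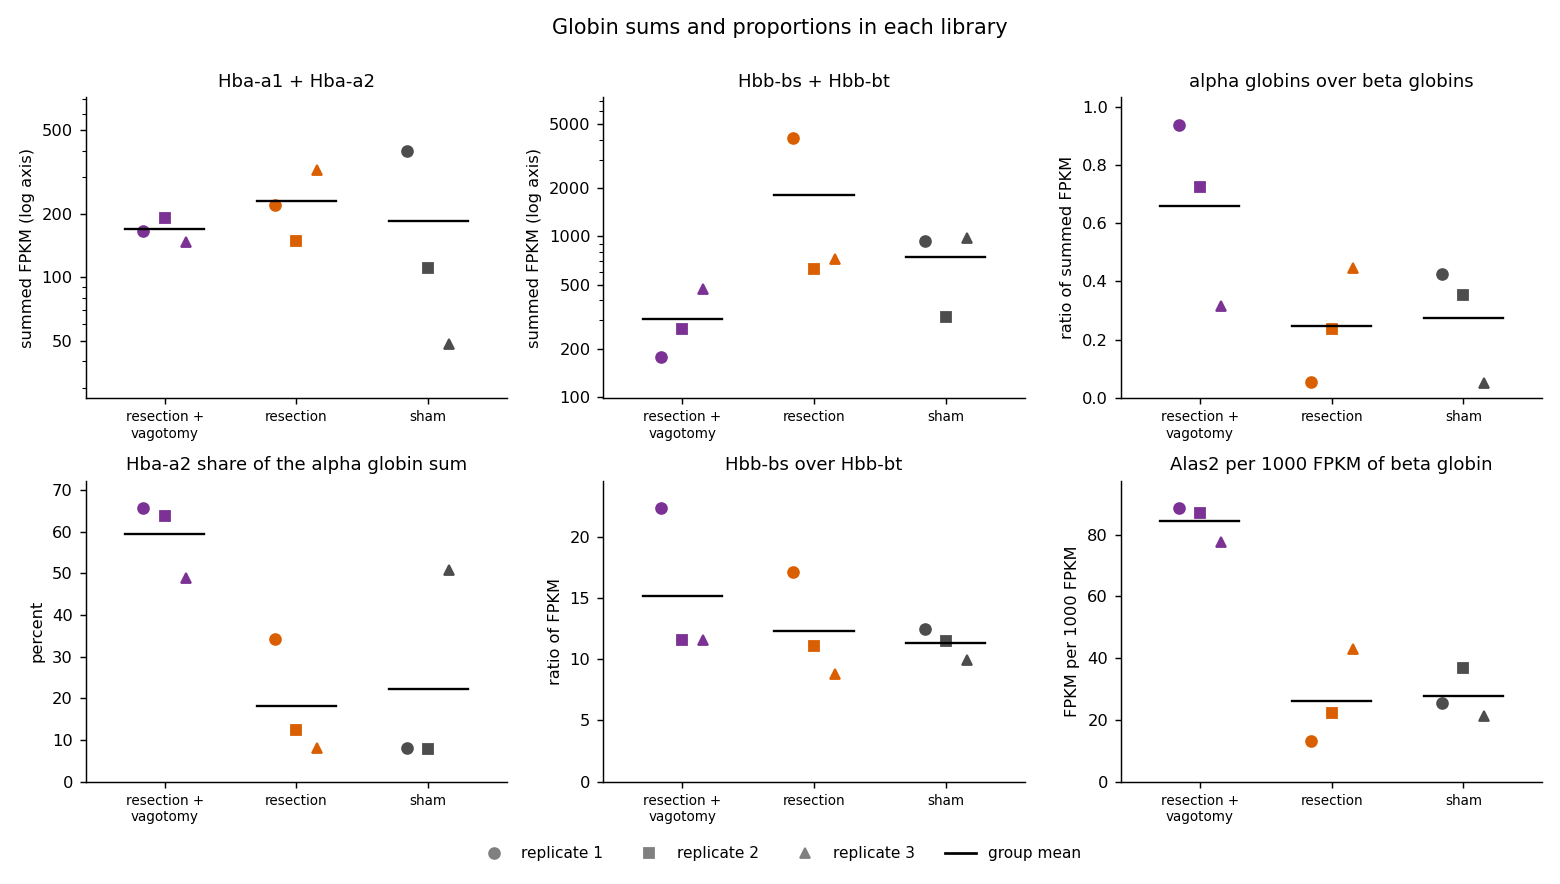
Summed FPKM of the alpha and beta globin pairs (log axes), and the ratios between globins and of Alas2 to beta globin (linear axes), in each library; lines are means of 3 libraries. Alas2 per 1000 FPKM of beta globin was 77.6 to 88.5 in resection with vagotomy, above all 6 other libraries.

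Alas2 (chrX:150547375-150570638, plus strand) overlapped between resection with and without vagotomy, where beta globin did not. It had 15.7, 23.1 and 36.4 FPKM in resection with vagotomy, 53.3, 13.9 and 31.1 FPKM in resection, and 23.7, 11.6 and 20.8 FPKM in sham. The 3 groups overlapped, and resection library 1 was again highest. For Alas2 the log2 difference was -0.26 in resection with vagotomy minus resection (SE 0.48, limma adjusted p = 0.781) and 0.39 in resection with vagotomy minus sham (limma adjusted p = 0.627). Per 1000 FPKM of beta globin, Alas2 came to 88.5, 86.9 and 77.6 FPKM in resection with vagotomy, 13.1, 22.1 and 43.1 FPKM in resection, and 25.4, 36.8 and 21.2 FPKM in sham. The vagotomy libraries lay above the other 6 on this ratio, which was not tested. Its denominator, the beta sum, was itself lower in resection with vagotomy than in resection. The pattern was not particular to Alas2. Per 1000 FPKM of all adult globins summed, Slc4a1 came to 2.39 to 4.19 FPKM in resection with vagotomy. That ratio was 0.50 to 1.96 FPKM in resection and 1.06 to 1.99 FPKM in sham, and it was not tested either. The locus deposited for Alas2 (chrX:150519518-150643878) also spans 3 other annotated genes, Apex2, Pfkfb1 and mmu-mir-3620, and whether their reads entered the value of Alas2 was not tested.

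Slc4a1 (chr11:102348824-102366203, minus strand) was the least abundant of the 7 genes. It had 1.44, 1.09 and 1.56 FPKM in resection with vagotomy, 2.16, 1.118 and 2.05 FPKM in resection, and 1.41, 0.85 and 1.27 FPKM in sham. The groups overlapped, and the log2 differences were -0.21 in resection with vagotomy minus resection (SE 0.27, limma adjusted p = 0.671) and 0.12 minus sham (limma adjusted p = 0.794). Alas2 exceeded Slc4a1 10.9- to 23.3-fold in resection with vagotomy, 12.5- to 24.7-fold in resection and 13.7- to 16.8-fold in sham.

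Hmox1 (chr8:75093621-75100589, plus strand) was higher in every resected heart library than in any sham library, with and without vagotomy. It had 26.02, 34.3 and 12.4 FPKM in resection with vagotomy, 41.3, 18.1 and 17.2 FPKM in resection, and 11.9, 3.26 and 10.1 FPKM in sham. The lowest vagotomy library (12.4 FPKM) lay only just above the highest sham library (11.9 FPKM). Neither comparison with sham passed the limma test: the log2 difference was 1.53 in resection minus sham (SE 0.51, unadjusted p = 0.0129, adjusted p = 0.463) and 1.46 in resection with vagotomy minus sham (SE 0.51, adjusted p = 0.0891). The authors' deposited table does call Hmox1 in resection over sham, at 25.96 against 8.56 FPKM (q = 0.00161). With and without vagotomy, the resected groups overlapped, with a log2 difference of -0.07 (SE 0.51, limma adjusted p = 0.954) and a 95% interval of -1.20 to 1.06, unadjusted.

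Taking the 7 genes by comparison, resection minus sham gave 7 positive log2 differences, as did 48.6% of all tested genes; they had a median of 0.81 beside -0.01 over all genes. None passed the limma threshold (0 of 7), which 0.294% of all tested genes did (0.287% higher); 1 of 7 (Hmox1) had an unadjusted p under 0.05, as had 5.89% of all genes. Hmox1 was also the only one of the 7 whose groups did not overlap, which held for 10.8% of all genes (6.36% higher). The other log2 differences in resection minus sham were 0.90 (Hbb-bs), 0.87 (Hba-a1), 0.81 (Hbb-bt), 0.77 (Hba-a2), 0.65 (Alas2) and 0.34 (Slc4a1). Their limma adjusted p was 1 in each case. Without sham library 3, which had the lowest Hba-a1, the log2 difference of Hba-a1 was -0.12. Without resection library 1, that of Hbb-bs was 0.01.

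In resection with vagotomy minus resection, 0 of 7 genes passed the limma threshold, against 3.52% of all genes. With the replicate number as a block, 9.64% of all genes passed in this comparison, and again 0 of the 7. The block was chosen from these same data, and the labels do not say that a number marks a shared litter. At an unadjusted p under 0.05 there were 3 (Hba-a2 on the higher side, Hbb-bs and Hbb-bt on the lower), against 24.2% of all genes. Groups that did not overlap were found for 3 of 7 (Hba-a1, Hbb-bs and Hbb-bt, all lower), against 26.2% of all genes (12.2% lower). In resection with vagotomy minus sham, 1 of 7 passed (Hba-a2, higher), against 10.1% of all genes (5.81% higher). At an unadjusted p under 0.05 there were 2 (Hba-a2 and Hmox1), against 30.1%, and the same 2 did not overlap, both higher, against 36.7% (19.7% higher). With vagotomy, the members' counts were thus read against a background in which many genes differed.

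**Figure D3:**
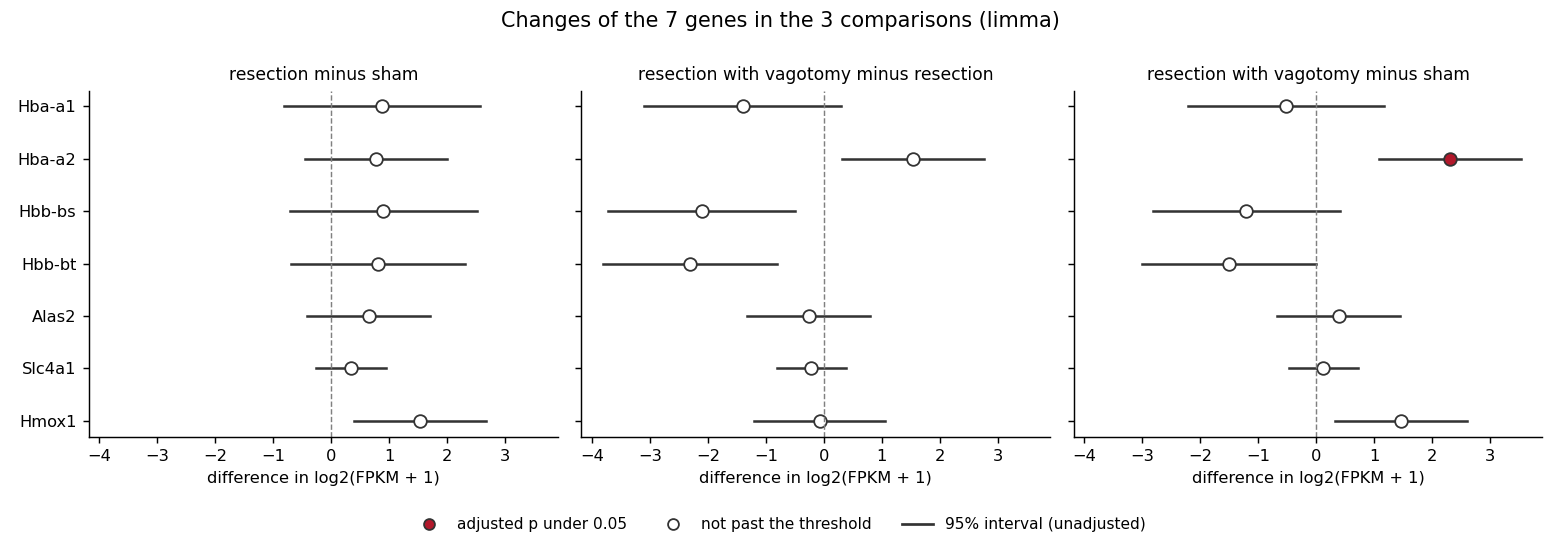
Log2 differences of the 7 genes in the 3 comparisons, with unadjusted 95% intervals from limma (9 libraries, 3 per group); a filled point has an adjusted p under 0.05. Only Hba-a2 in resection with vagotomy minus sham (2.31) is filled.

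The authors' deposited table, made with Cuffdiff and giving 1 value per group, calls more of the 7 genes than limma. For resection over sham it calls 5 of 7 at a q under 0.05, all higher, against 6.12% of all genes it tested (4.18% higher), and 3 of 7 at a q under 0.01 (Hmox1, Hbb-bs and Hbb-bt), against 4.22%. In the authors' deposited table the values in resection and sham were 1721 and 693 FPKM for Hbb-bs (q = 0.00161), 119 and 62.3 FPKM for Hbb-bt (q = 0.00161), 40.8 and 22.2 FPKM for Hba-a2 (q = 0.0238), and 33.4 and 19.0 FPKM for Alas2 (q = 0.0427). Hba-a1 (q = 0.855) and Slc4a1 (q = 0.504) were not called in the authors' deposited table. The resection value of Hbb-bs rested on library 1, at 3850 FPKM beside 577 and 649 FPKM in the other resection libraries. For resection with vagotomy over resection the authors' deposited table calls 4 of 7, against 17.1% of all genes, and the same 4 at a q under 0.01, against 8.84%. These are Hbb-bs (281 against 1692 FPKM), Hbb-bt (21.9 against 116 FPKM) and Hba-a1 (67.1 against 189.8 FPKM) as lower and Hba-a2 (101 against 40.03 FPKM) as higher, each with q = 0.000995.

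Of the genes of red cell formation outside the adult globins, many were listed and some defining ones were near 0. All 16 heme synthesis genes, 13 of 21 red cell membrane and skeleton genes, 13 of 18 red cell enzymes and 11 of 15 erythroid factors and receptors were among the 14479 listed genes, and none of 7 embryonic and other globin genes was. In the authors' deposited table, the embryonic globins Hba-x, Hbb-y and Hbb-bh1 had at most 0.23 FPKM in any group. The erythroid master regulators Gata1 and Klf1 had at most 0.089 and 0.17 FPKM there, and the red cell carbonic anhydrase Car1 at most 0.016 FPKM. Both regulators and Car1 were thus near 0 in libraries whose summed adult globins came to 345 to 4296 FPKM.

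The lists around the 7 genes were counted by the same limma fit; in resection minus sham, 0 genes of the 8 lists passed, beside 0.294% of all genes. Heme synthesis had 16 tested genes and a median log2 difference of 0.07, with 0 at an unadjusted p under 0.05, beside 5.89% of all genes. Red cell membrane and skeleton (9 tested of 21 listed) had a median of -0.18 and 0 such genes, and red cell enzymes and maturation (13 of 18) had 0.46 and 1. Erythroid transcription factors and receptors (10 of 15) had 0.12 and 0, and heme breakdown (4 of 4) had 0.51 and 2. Scavenging and transport of hemoglobin and heme (6 of 10) had 0.33 and 1, iron storage, uptake and export (21 of 24) had 0.07 and 5, and Hmox1 regulators and NRF2 targets (16 of 21) had 0.17 and 3. Heme breakdown and red cell enzymes thus had the higher medians, beside -0.01 over all genes. Several lists hold 1 of the 7 genes, and Blvrb and Tfrc are each in 2 of them.

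In heme breakdown beyond Hmox1, no gene passed in the main fit. With the replicate block, Blvrb passed in resection with vagotomy minus sham (limma adjusted p = 0.0179), where 1324 of all 13249 genes rose. Blvrb, a biliverdin reductase, had 27.0, 23.8 and 52.7 FPKM in resection with vagotomy, 25.9, 11.2 and 43.6 FPKM in resection, and 14.2, 7.45 and 11.2 FPKM in sham. The vagotomy libraries lay above all sham libraries, and the resection libraries overlapped with sham. The log2 difference of Blvrb was 1.52 in resection with vagotomy minus sham (limma adjusted p = 0.0647) and 1.07 in resection minus sham (limma adjusted p = 0.817). Blvra, the other biliverdin reductase, differed by -0.19 and -0.10 on the log2 scale in the same comparisons (limma adjusted p = 0.704 and 1). Hmox2, the constitutive heme oxygenase, differed by 0.58 and -0.06 (limma adjusted p = 0.263 and 1). Heme breakdown had 0 of 4 genes past the threshold in resection with vagotomy minus sham, with 2 (Hmox1 and Blvrb) at an unadjusted p under 0.05, beside 30.1% of all genes.

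Hp and Lrp1 rose in resection with vagotomy against sham, 2 of the 6 tested genes of scavenging and transport, beside 5.81% of all genes. Hp encodes haptoglobin, the plasma protein that binds free hemoglobin. It had 5.45, 7.52 and 17.4 FPKM in resection with vagotomy, 11.7, 2.82 and 16.3 FPKM in resection, and 0.91, 0.15 and 0.41 FPKM in sham. All 6 libraries of resected hearts lay above all 3 sham libraries. The log2 difference of Hp was 2.79 in resection with vagotomy minus sham (SE 0.55, limma adjusted p = 0.0174) and 2.70 in resection minus sham (SE 0.55, limma adjusted p = 0.0868). Lrp1, a receptor that takes up heme bound to hemopexin, had 34.1, 37.5 and 66.3 FPKM in resection with vagotomy, 17.5, 11.6 and 27.5 FPKM in resection, and 17.9, 8.72 and 10.1 FPKM in sham. Its vagotomy libraries were above all others, and its resection and sham libraries overlapped. Lrp1 had a log2 difference of 1.82 in resection with vagotomy minus sham (SE 0.39, limma adjusted p = 0.0217). Both calls were lost without vagotomy library 3, sham library 2 or sham library 3, with limma adjusted p = 0.0542 to 0.0843 for Hp and 0.0637 to 0.103 for Lrp1. Against resection 0 of the 6 passed, and 3 did with the replicate block, beside 9.64% of all genes in either direction. These were Lrp1 (1.26, limma adjusted p = 0.0496) and the heme and folate carrier Slc46a1 (1.08, limma adjusted p = 0.0432) as higher, and the heme-binding membrane protein Pgrmc1 (-0.87, limma adjusted p = 0.0489) as lower. Hemopexin itself, Hpx, had at most 0.18 FPKM in any group of the authors' deposited table.

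Among 21 tested genes of iron storage, uptake and export, 5 rose in resection with vagotomy against sham (Slc11a1, Trf, Fth1, Lcn2 and Hfe), beside 5.81% of all genes. Slc11a1, an iron and manganese transporter of phagosomes, had 15.7, 12.8 and 16.3 FPKM in resection with vagotomy, 7.99, 2.45 and 9.09 FPKM in resection, and 1.34, 0.54 and 1.96 FPKM in sham. The 3 groups did not overlap with each other. Its log2 difference in resection with vagotomy minus sham was 2.85 (SE 0.41, limma adjusted p = 0.00599). Trf, the plasma iron carrier transferrin, had 21.5, 41.5 and 111 FPKM in resection with vagotomy, 13.1, 4.97 and 24.7 FPKM in resection, and 2.33, 3.83 and 3.62 FPKM in sham, and its log2 difference was 3.50 (SE 0.60, limma adjusted p = 0.0119). Fth1, the ferritin heavy chain that stores iron, had 1779, 1578 and 1464 FPKM in resection with vagotomy, 662, 367 and 523 FPKM in resection, and 551, 415 and 329 FPKM in sham. Here the vagotomy libraries stood apart from both other groups, which overlapped. Fth1 rose by 1.92 on the log2 scale against sham (SE 0.33, limma adjusted p = 0.0119) and by 1.67 against resection (SE 0.33, limma adjusted p = 0.0336). Lcn2, which binds iron-carrying siderophores and is made by neutrophils and injured tissue, rose by 2.53 against sham (limma adjusted p = 0.0144), and Hfe, a regulator of iron uptake, by 1.53 (limma adjusted p = 0.0208). Against sham, the calls of Trf, Fth1, Lcn2 and Hfe were lost without sham library 2 (limma adjusted p = 0.0522 to 0.0944) or sham library 3 (0.061 to 0.0929), and that of Slc11a1 was kept with any 1 library left out. Against resection, the call of Fth1 was lost without any 1 of the vagotomy libraries, resection library 2 or 3, or sham library 2 or 3 (limma adjusted p = 0.052 to 0.119). Fth1 was the 1 of 21 past the threshold against resection, beside 3.52% of all genes in either direction. With the replicate block 4 of 21 rose there, beside 9.64% of all genes in either direction. These were Slc11a1 (limma adjusted p = 0.0343), Trf (0.046), Hfe (0.0482) and Fth1 (0.0194). Against sham, Ftl1, the ferritin light chain, differed by 1.45 (limma adjusted p = 0.0508), and the iron exporter Slc40a1 by 0.15 (limma adjusted p = 0.788). The transferrin receptor Tfrc, through which red cell precursors take up iron, differed by -0.68 against sham (limma adjusted p = 0.318).

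**Figure D4:**
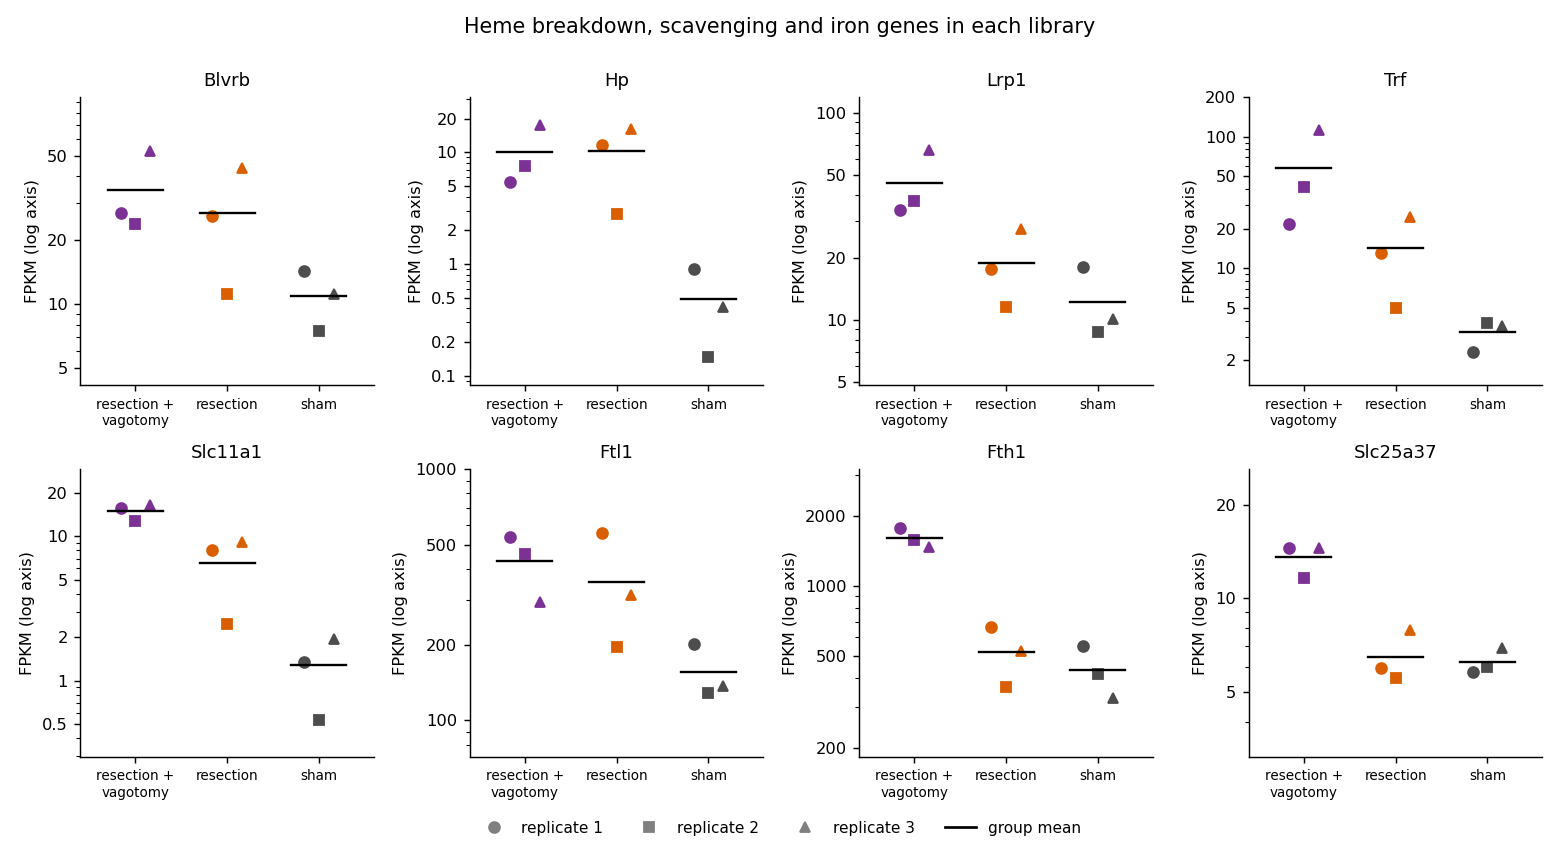
FPKM (log axes) of 8 genes of heme breakdown, scavenging, iron and mitochondrial iron import in each library; lines are means of 3 libraries. Fth1 was 1464 to 1779 FPKM in resection with vagotomy, above all 6 other libraries, and Hp was 2.82 to 17.4 FPKM in resected hearts with and without vagotomy, against 0.15 to 0.91 FPKM in sham.

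Heme synthesis had the highest median of the 8 lists in resection with vagotomy minus resection, 0.61 over its 16 tested genes, beside 0.02 over all genes. In it, 1 of 16 rose (Slc25a37), beside 1.97% of all genes. At an unadjusted p under 0.05 there were 7 higher and 0 lower, beside 24.2% of all genes in either direction. Slc25a37 (mitoferrin), which carries iron into mitochondria, had 14.5, 11.6 and 14.6 FPKM in resection with vagotomy, 5.97, 5.54 and 7.89 FPKM in resection, and 5.77, 6.01 and 6.89 FPKM in sham. The vagotomy libraries lay above the other 6. The log2 difference of Slc25a37 was 0.97 against resection (SE 0.22, limma adjusted p = 0.0451) and 1.01 against sham (SE 0.22, limma adjusted p = 0.0252). Ppox, the enzyme before the last step of heme synthesis, rose by 1.83 against sham (SE 0.49, limma adjusted p = 0.0418). The call of Slc25a37 against resection was lost with each of the 9 libraries left out in turn (limma adjusted p = 0.052 to 0.157). Against sham it was lost without vagotomy library 1 or 3 or any 1 sham library (limma adjusted p = 0.0501 to 0.118), and that of Ppox without any 1 vagotomy library, sham library 2 or sham library 3 (0.0669 to 0.168). Alas1, which starts heme synthesis outside red cells, had 171, 188 and 527 FPKM in resection with vagotomy, 82.4, 46.0 and 118 FPKM in resection, and 124, 123 and 95.2 FPKM in sham. Its vagotomy libraries lay above the rest, with a log2 difference of 1.73 against resection (SE 0.46, limma adjusted p = 0.0653), which passed with the replicate block (limma adjusted p = 0.0398). Its level was above that of Alas2 in every library. Urod (1.14) and Glrx5 (1.00) differed by log2 values that did not pass against resection (limma adjusted p = 0.0907 and 0.127).

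In the red cell membrane and skeleton list, 1 of 9 tested genes rose in resection with vagotomy against resection (Tmod1), beside 1.97% of all genes, and 2 of 9 against sham (Tmod1 and Aqp1), beside 5.81%. Both genes are also known outside red cells. Tmod1 caps actin filaments in the red cell skeleton and in heart muscle, and Aqp1 is a water channel of red cells and of small vessels. Tmod1 had 194, 158 and 149 FPKM in resection with vagotomy, 55.4, 35.8 and 84.7 FPKM in resection, and 64.7, 67.7 and 57.4 FPKM in sham. Its vagotomy libraries stood above the other 6, with log2 differences of 1.57 against resection (limma adjusted p = 0.0337) and 1.38 against sham (limma adjusted p = 0.0274). Aqp1 rose by 1.31 against sham (SE 0.37, limma adjusted p = 0.0481), and its difference of 1.37 against resection passed with the replicate block alone (limma adjusted p = 0.0403, and 0.0646 without it). Without any 1 vagotomy library, sham library 2 or sham library 3, both lost their calls against sham, with limma adjusted p = 0.0543 to 0.11 for Tmod1 and 0.0763 to 0.184 for Aqp1, and Aqp1 also did without resection library 2 (0.0575) or 3 (0.0638). Against resection, Tmod1 lost its call without any 1 vagotomy library, resection library 2, sham library 2 or sham library 3 (limma adjusted p = 0.0654 to 0.114). Ank1, the ankyrin that ties Slc4a1 to the skeleton, differed by 0.46 and 0.16 in the same comparisons (limma adjusted p = 0.564 and 0.848), and Sptb, the red cell beta spectrin, by 1.12 and 0.91 (limma adjusted p = 0.104 and 0.127). The sum of 10 heart muscle markers, Myh6 and Actc1 left out for their status, was 22755 to 55437 FPKM in resection with vagotomy, 10088 to 15401 FPKM in resection and 14492 to 16290.3 FPKM in sham. Its vagotomy libraries lay above all others, and its part in the values of Tmod1 was not tested. The markers were not alike. Means in resection with vagotomy, resection and sham were 7663, 898 and 1211 FPKM for Myl3 and 6707, 825 and 1019 FPKM for Tnnc1. They were 140, 147 and 148 FPKM for Ryr2, 1459, 1423 and 1476 FPKM for Pln, and 3772, 3904 and 6184 FPKM for Myl2. Of all 12 markers, 3 passed as higher and 2 as lower against resection by limma. Of all genes, 1.97% passed as higher and 3.52% in either direction. The 12 include Myh6 and Actc1, whose zeros in resection with vagotomy are not measured levels.

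Of the other lists in resection with vagotomy, red cell enzymes and maturation (13 tested), erythroid factors (10) and NRF2 targets (16) had 0 genes past the limma threshold in either comparison. With the replicate block, 1 of 13 red cell enzymes (Fam46c, also called Tent5c) fell against resection (limma adjusted p = 0.0386). So did 1 of 16 NRF2 targets, Gclm (limma adjusted p = 0.0362). Of all genes, 9.64% passed there with the block in either direction. Against sham with the block, 2 red cell enzymes rose, Blvrb (limma adjusted p = 0.0179) and Bpgm (0.0313). Of the NRF2 targets, Mafk (limma adjusted p = 0.0476) and Sqstm1 (0.0472) rose there, and Gclm (0.0302) fell. Of all 13249 genes, 1324 rose and 1089 fell in that fit. Without the block, at an unadjusted p under 0.05 against sham, red cell enzymes had 2 higher and 2 lower and erythroid factors 1 higher. NRF2 targets had 5 higher and 2 lower, beside 30.1% of all genes in either direction. Nfe2l2, which encodes NRF2, the activator of Hmox1, differed by -0.15 against sham (limma adjusted p = 0.837) and by 0.19 in resection minus sham (limma adjusted p = 1). Bach1, which represses Hmox1 until heme binds it, differed by -0.65 and 0.15 (limma adjusted p = 0.162 and 1). Car2, the main carbonic anhydrase of red cells besides Car1, differed by 0.02 and -0.30 (limma adjusted p = 0.964 and 1). Against resection, red cell enzymes had 1 higher and 2 lower at that level, erythroid factors 2 higher and NRF2 targets 3 lower, beside 24.2% of all genes.

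**Figure D5:**
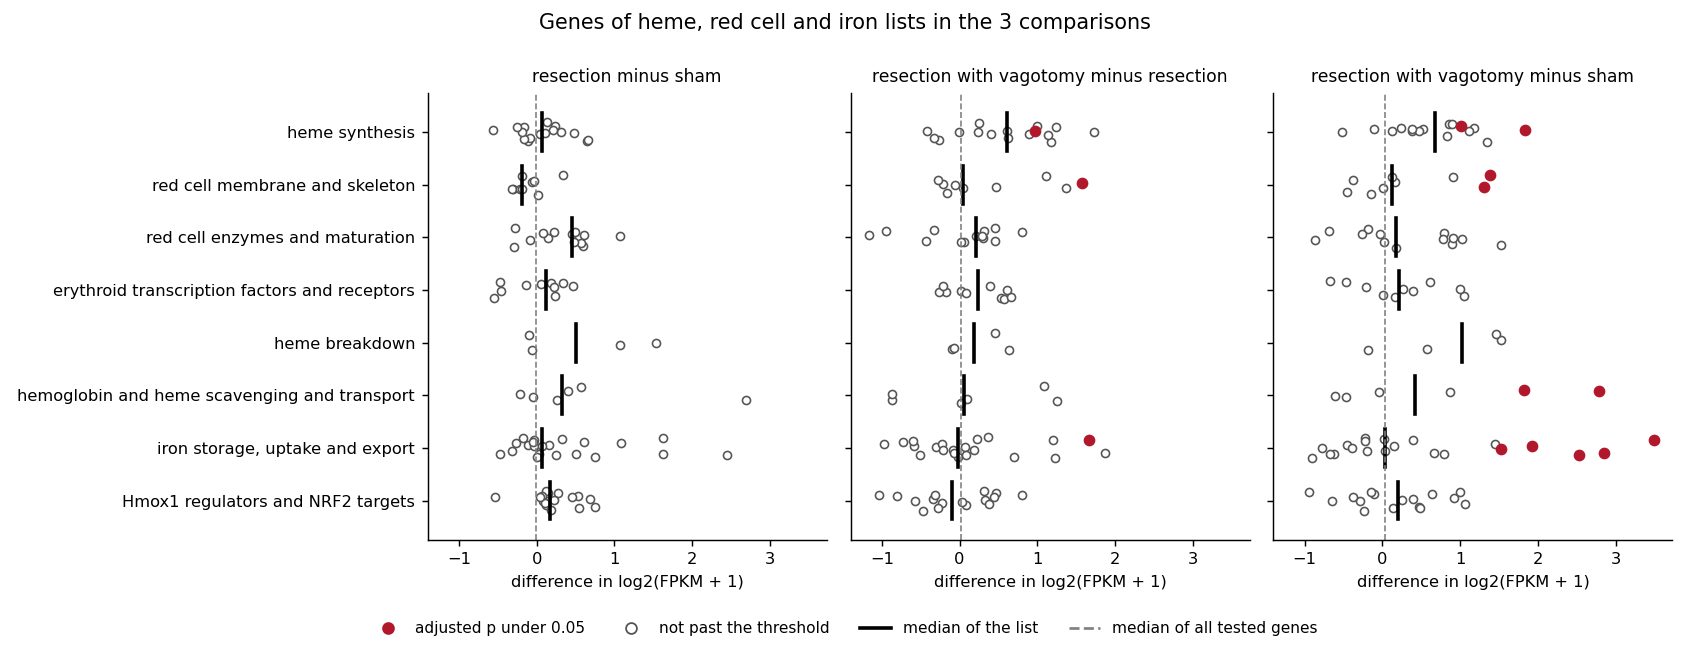
Log2 difference of each tested gene of 8 lists in the 3 comparisons (limma, 3 libraries per group); filled points have an adjusted p under 0.05, bars are list medians and dashed lines the median of all 13249 genes. In resection minus sham 0 genes are filled, and in resection with vagotomy minus sham 5 of 21 iron genes are.

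The summed markers of macrophages, the cells that break down red cells, were higher in resected hearts, as Hmox1 was, but not every marker was. The summed level of all 12 macrophage markers was 235 to 288 FPKM in resection with vagotomy. It was 179 to 317 FPKM in resection and 59.8 to 82.8 FPKM in sham. Log2 differences from sham were positive for 11 of the 12 in resection with vagotomy and for 12 in resection. Mrc1 had 6.53 to 8.31 FPKM in resection with vagotomy, 5.36 to 13.6 FPKM in resection and 6.71 to 10.2 FPKM in sham. Its groups thus overlapped, as did those of C1qa, C1qb and C1qc. Cd68 also overlapped between resection with vagotomy and sham, and Fcgr1 between resection and sham. Of the 12, 6 rose in resection with vagotomy minus sham, beside 5.81% of all genes, and 3 in resection minus sham (Cd14, Itgam and Lyz2), beside 0.287%, with Cd68 and Fcgr1 among the lowest in sham, at 0.62 to 2.28 and 0.29 to 1.07 FPKM; none of the 12 was at 0 in any library. The summed neutrophil markers (7 of 10 listed) were 108 to 310 FPKM in resection with vagotomy, 200.9 to 284 FPKM in resection and 18.3 to 41.8 FPKM in sham. Of the 6 tested, 1 passed as lower with vagotomy against resection (S100a8, mean 42.8 against 165 FPKM), beside 3.52% of all genes in either direction. The mean of S100a9 went the other way, 140 against 45.4 FPKM. The summed platelet markers (5 of 10 listed) were 12.3 to 23.3 FPKM in resection with vagotomy, 17.0 to 51.2 FPKM in resection and 5.13 to 7.40 FPKM in sham. Their part in the values of Hmox1, Hp, Slc11a1 and Lcn2 was not tested. Endothelial markers (10 of 10 listed) summed to 516 to 603, 446 to 709 and 383 to 771 FPKM in resection with vagotomy, resection and sham, and fibroblast markers (10 of 10) to 1593 to 1909, 1586 to 2126 and 1817 to 2490 FPKM, so both sums overlapped. Of the 10 endothelial markers, 1 (Emcn) passed as lower with vagotomy against resection and against sham, beside 3.52% and 10.1% of all genes in either direction. Emcn averaged 8.97, 32.3 and 28.8 FPKM in the same order of groups. Of 10 fibroblast markers 0 passed, and 0 of 10 lymphocyte markers were listed. Lyz2, the most abundant of the 12 listed macrophage markers, averaged 131 FPKM in resection with vagotomy, 159 FPKM in resection and 27.2 FPKM in sham. Whether it came from macrophages alone was not tested, and the summed neutrophil markers were also higher in resected hearts. Per FPKM of Lyz2, Hmox1 came to 0.12 to 0.24 FPKM in resection with vagotomy. The ratio was 0.095 to 0.22 FPKM in resection and 0.15 to 0.63 FPKM in sham, so these ranges overlapped.

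Likeness to the 7 genes was measured by Pearson's r of log2(FPKM + 1) over the 9 libraries, among 11443 other protein-coding genes, as a description; the libraries share groups, so r also reflects group differences. The genes most like Hmox1 were Acp5 (r = 0.956), Gatsl3 (0.94), Fcer1g (0.93), Cd68 (0.919) and Rras (0.911). Acp5 encodes an acid phosphatase of macrophages and osteoclasts, Fcer1g the signalling chain of Fc receptors on myeloid cells, and Cd68 a lysosomal protein of macrophages. The genes most like Alas2 were Tmem176b (0.921), Sin3b (0.912), Ccm2 (0.899), Ackr2 (0.896) and Rrs1 (0.895). Those most like Slc4a1 were Smim5 (0.936), Tmem176b (0.924), Minpp1 (0.913), Fbln2 (0.912) and Rpl36a (0.892). Those most like Hba-a1 were Txlna (0.938), Phf13 (0.889), Syne4 (0.885), Fancg (0.883) and Rdm1 (0.859). Among the 7 genes themselves, Hbb-bs and Hbb-bt had r = 0.961, Alas2 and Slc4a1 0.848, and Hba-a2 and Hmox1 0.801. Hba-a1 and Hba-a2, whose promoter windows are nearly the same, had r = -0.20, and Hba-a1 and Hbb-bs had 0.294.

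By level, averaged over the 3 libraries of each group, Hbb-bs led in all groups: 282 ± 135 FPKM in resection with vagotomy, 1692 ± 1869 FPKM in resection and 682 ± 340 FPKM in sham (SD, n = 3 each). Among vagotomy libraries, Hba-a2 (101 ± 26.2 FPKM) came before Hba-a1 (67.4 ± 9.20 FPKM), and their libraries overlapped in level. In resection, Hba-a1 (191 ± 91.5 FPKM) and Hbb-bt (117 ± 94.1 FPKM) came next and overlapped, and in sham, Hba-a1 (164 ± 179 FPKM) and Hbb-bt (61.3 ± 33.05 FPKM) did. Alas2 (25.1 ± 10.5 FPKM), Hmox1 (24.2 ± 11.1 FPKM) and Hbb-bt (22.02 ± 14.9 FPKM) were within each other's spread in resection with vagotomy. Slc4a1 was last in all groups, at 1.37 ± 0.24 FPKM in resection with vagotomy, 1.77 ± 0.57 FPKM in resection and 1.18 ± 0.29 FPKM in sham.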

How the data were processed

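Per the submitters' processing notes, TopHat2 2.0.9, Cufflinks 2.1.1, Cuffdiff 2.1.1 and GRCm38 were used. The deposited matrix holds FPKM to which the authors had added 1; this was subtracted. The authors' deposited tables give group FPKM values, p-values, q-values and a test score (Cuffdiff's statistic, per the file headers, not used). No counts were used. Genes averaging 1 FPKM or more were fitted with limma 3.58.1 (R 4.3.3) on log2(FPKM + 1): all 9 libraries, 1 mean per group, moderated two-sided tests with a mean-variance trend, Benjamini-Hochberg adjustment over 13249 genes, threshold 0.05. The procedure was tested on simulated data. Positions, transcripts and coding sequences came from GENCODE M21, promoters from RefSeq (GRCm38.p6). The 7 genes and all lists were chosen with earlier results of these data known. Named beside them are list genes past the threshold, up to 4 per list and comparison with the smallest p, up to 3 abundant markers per cell type, preset context genes (an item among them is not reported here), and the 5 genes most like 4 of the 7. Alternatives were pseudocounts of 0.1 and 5, no filter or 5 FPKM, upper-quartile scaling, a fit to 6 libraries, no trend, the replicate number as a block, each library left out and, added after seeing the data, summed globin copies. Deviations from group means correlated by 0.199, 0.141 and 0.117 in same-numbered libraries of resection with vagotomy and resection. Each library there correlated best with its own number. These numbers, per the sample titles, were therefore taken as pairs in the replicate block, not in the main fit, a choice made from these same data. Calls that passed only with the block rest on this pairing. Their p-values take the pairing as given and do not allow for that choice. With sham, same-number correlations were -0.019 to 0.498, not all over 0.1. Resection library 2 correlated better with sham library 3 (0.335) than with sham library 2 (0.197). Lymphocyte markers (0 of 10 listed), endothelial and fibroblast markers were also tabulated.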

Additional observations from a re-analysis of the deposited data

How the results depend on the processing

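The log2 changes of Hbb-bs, Hbb-bt, Hba-a2 and Slc4a1 kept their direction in all alternatives run, and those of Hba-a1, Alas2 and Hmox1 reversed in some. In resection with vagotomy minus resection, Alas2 was -0.76 to 0.17 with 1 library left out, positive (0.02) without resection-with-vagotomy library 1 and (0.17) without resection library 1, and Hmox1 was -0.37 to 0.34, positive (0.34) without resection-with-vagotomy library 3 and (0.33) without resection library 1. Hba-a1 was -0.12 (without sham library 3) to 1.83 in resection minus sham, and in resection with vagotomy minus sham it was -1.51 to 0.43, with 0.43 without sham library 1 and 0.38 with the alpha copies summed. Leaving out 1 library gave 0 genes of the 7 past the threshold in resection minus sham, 0 to 1 in resection with vagotomy minus resection and 0 to 1 in resection with vagotomy minus sham. Hba-a2 passed against sham in 12 of 17 alternatives, with adjusted p between 0.0153 and 0.126 (limma).

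The number of genes called among all genes moved more. In resection minus sham it was 66 with a pseudocount of 0.1, 23 with a pseudocount of 5, 13 with only the 6 libraries compared, and 11 to 59 with 1 library left out, beside 39. In resection with vagotomy minus resection it was 29 with only the 6 libraries and 42 to 591 with 1 library left out, beside 466. In resection with vagotomy minus sham it was 100 to 1701 with 1 library left out, beside 1334. The cause was not tested; fits with fewer libraries have fewer residual degrees of freedom. Of the list genes called in resection with vagotomy minus sham, Slc11a1 passed in 17 of 17 alternatives, Fth1, Lcn2 and Trf in 15, Hp and Lrp1 in 14, Ppox, Slc25a37 and Tmod1 in 12 of 17, Hfe in 14 of 16 and Aqp1 in 6 of 17. Against resection, Tmod1 passed in 10, Fth1 in 9 and Slc25a37 in 5 of 17. At a q under 0.01 the authors' deposited table calls 3 of the 7 in resection over sham, beside 5 at 0.05.

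Libraries share replicate numbers across groups by their titles, but the column names of the deposited matrix give other numbers to some of them. The labels do not say that a number marks a shared litter or day. Same-numbered libraries of resection with vagotomy and resection deviated together, and those of either group and sham did not in every pair. With the replicate block, 1277 genes were called in resection with vagotomy minus resection, 2413 in resection with vagotomy minus sham and 55 in resection minus sham, and the counts of the 7 genes did not change. Depth is unknown, so counting error could not be separated from the spread between libraries. Slc4a1, near 1 FPKM, was not tested with the filter at 5 FPKM.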
